A study of Schmidtea mediterranea with 14 samples.

Results

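The transcripts described here are the lipoprotein assembly transcripts of the planarian *Schmidtea mediterranea*. The study identifies *apob-1* (dd_Smed_v6_636_0_1) and *apob-2* (dd_Smed_v6_194_0_1) as orthologs of apolipoprotein B. The third, *mttp* (dd_Smed_v6_5671_0_1), is named here after microsomal triglyceride transfer protein, and its orthology was not tested. All were taken by identifier and are 3 of the 28069 transcripts in the count table. All 3 passed the filter that left 18436 transcripts for testing, which was a normalized count (CPM, scaled to library size) of at least 1 in at least 4 libraries. RNA came from whole, uninjured animals of the asexual clonal line CIW4, in 14 libraries. All animals were fed liver with dsRNA 3 times and then starved for 7 days. The 6 control libraries came from animals fed *egfp* dsRNA, a sequence that planarians lack. The 4 *apob-M* and 4 *apob-S* libraries came from *apob(RNAi)* animals, which were fed dsRNA of *apob-1* and *apob-2* together and then sorted by mild (M) or severe (S) depigmentation, so membership of these groups followed from the phenotype and not from random assignment. Each library was a pool of 5 to 6 animals, and in whole-animal RNA fewer cells of a type and less RNA per cell cannot be told apart. Reads from remaining fed dsRNA, if any, cannot be told from reads of the *apob* mRNAs, while no dsRNA of *mttp* was fed.

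ApoB is the large structural protein of triglyceride-rich lipoproteins. In vertebrates it is made in the intestine and liver, where it takes up triglyceride and cholesteryl ester while it enters the endoplasmic reticulum (ER). MTTP is the ER protein that carries these lipids onto nascent ApoB, and ApoB that receives no lipid is degraded instead of being secreted. Secreted particles deliver lipid to peripheral tissues, where receptors of the LDL receptor family bind them.

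Both *apob* transcripts were targeted at once, and a read with several mapping transcripts added to the count of each, so stretches of shared sequence bear on whether the 2 levels are separate measurements. Of the clones that the study lists for the 2 genes, 399 bases each were held here, with a GC content of 30.1% for *apob-1* and 37.6% for *apob-2*. The longest run of identical bases between these parts was 9 bases on the same strand and 11 bases with the opposite strand, where a sequenced read was 150 bases long. The 120 bases of each clone part that surround the run of 9 are printed to show how little is shared, with the run in capitals. They are bases 40 to 159 of the *apob-1* part and bases 269 to 388 of the *apob-2* part, counted from the first base of the clone.
apob-1: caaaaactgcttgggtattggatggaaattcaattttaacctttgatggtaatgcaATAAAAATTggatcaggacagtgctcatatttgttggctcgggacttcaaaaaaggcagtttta
apob-2: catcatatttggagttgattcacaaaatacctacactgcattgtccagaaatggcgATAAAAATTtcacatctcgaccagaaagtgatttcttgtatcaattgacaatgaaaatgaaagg
The rest of the transcripts, of 11557 and 17568 bases, was not compared. Each of the 3 transcripts was the only one of its assembly component in the table. Reads were mapped to the unique transcripts of the assembly, so this does not show that no second isoform exists. The *mttp* transcript was 2797 bases long.

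The libraries held 16839133 to 23039326 counts, and in each of 27 pairs of same-group replicates the counts differed beyond sampling noise (chi-square per degree of freedom at least 2.95). A single transcript, dd_Smed_v6_4_1_1, took 7.28% of the counts in *apob-M* replicate 3 and 5.36% in *apob-S* replicate 2, and at most 2.43% elsewhere. The fold changes of *apob-1*, *apob-2* and *mttp* kept their direction and their side of the threshold without these 2 libraries. This alternative was added after the data were seen. The permutation tests of levels and of the paralog ratio, and the relations of *mttp* to *apob*, were not recomputed without both. Taken as intestine markers were *ctsla*, *slc22a6*, *npc2* and *nkx2.2*. The text of the study ties *ctsla* and *nkx2.2* to the intestine but gives *slc22a6* and *npc2* by identifier only. None of these markers was at 0 in any group. Their summed level was 2475 to 2810 CPM in control, 2415 to 2747 in *apob-M* and 2439 to 2833 in *apob-S*, so that the groups overlapped. *ctsla*, with a mean of 1844 CPM in control, made up most of this sum. The markers did not all move alike and are given singly below.

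Both *apob* transcripts fell in both *apob(RNAi)* groups, *apob-1* to 18.9% and 20.4% of its control mean and *apob-2* to 37.0% and 31.5%. *mttp* rose in both, to 167% in *apob-M* and 213% in *apob-S*, and was higher in *apob-S* than in *apob-M*. Levels below are normalized CPM, the counts scaled to library size after TMM normalization, and fold changes are from edgeR's quasi-likelihood test, with the false discovery rate (FDR) as the Benjamini-Hochberg adjusted p over all 18436 transcripts. Of these, 7.05% were called higher and 8.24% lower in *apob-M* than in control, while for *apob-S* against control these shares were 13.5% and 15.7%. The *apob* decreases are the check of the knockdown and not a response to it.

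The ligand transcript *apob-1* was at 1229 CPM in the lowest control library, 1338 at the median and 1702 in the highest. The *apob-M* libraries held 257, 302, 283 and 226 CPM, and the *apob-S* libraries 319, 327, 266 and 241. Every *apob(RNAi)* library was thus below every control library, while the *apob-M* and *apob-S* libraries overlapped. The remaining level was 18.9% ± 2.32 of the control mean in *apob-M* (SD, n = 4) and 20.4% ± 2.94 in *apob-S* (SD, n = 4). This was a 5.30-fold decrease in *apob-M* (−2.41 on the log2 scale, SE 0.108, edgeR FDR 1.93e-11) and a 4.90-fold decrease in *apob-S* (−2.29, SE 0.107, edgeR FDR 1.4e-11). Only 1 tested transcript had a more negative fold change in *apob-M*, and 3 had one in *apob-S*.

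The paralog *apob-2* was at 979.97 CPM in the lowest control library, 1059 at the median and 1625 in the highest. The *apob-M* libraries held 369, 568, 430.3 and 389.6 CPM, and the *apob-S* libraries 457, 476, 318 and 245. Again no *apob(RNAi)* library reached the control range, and *apob-S* replicate 4 was the lowest of all. The remaining level was 37.0% ± 7.55 of the control mean for *apob-M* (SD, n = 4) and 31.5% ± 9.39 for *apob-S* (SD, n = 4). The log2 fold change was −1.43 in the first (SE 0.182, edgeR FDR 1.9e-05) and −1.67 in the second (SE 0.184, edgeR FDR 9.61e-07). Here 20 and 21 transcripts had a more negative fold change. Together, *apob-1* and *apob-2* made up 0.223% to 0.334% of all counts in control libraries, 0.0634% to 0.0897% in *apob-M* and 0.0492% to 0.0798% in *apob-S*.

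The lipid transfer transcript *mttp*, which was not targeted, was at 68.6 CPM in the lowest control library, 70.1 at the median and 72.1 in the highest. In the *apob-M* libraries it was at 121, 119, 115 and 113 CPM. The *apob-S* libraries held 147, 151, 147 and 153 CPM. The 3 groups did not overlap at any point, and each of the 8 *apob(RNAi)* libraries was above all 6 control libraries. *mttp* rose 1.67-fold in *apob-M* (95% interval 1.59 to 1.75, or 0.74 on the log2 scale, SE 0.0346, edgeR FDR 3.76e-11) and 2.13-fold in *apob-S* (2.02 to 2.24, or 1.09 on the log2 scale, SE 0.0345, edgeR FDR 6.05e-14). Larger log2 fold changes were found for 110 transcripts in the first comparison and 121 in the second. An exact permutation test of the mean log2 CPM, two-sided, gave p = 0.00952 for *mttp* in both comparisons, the smallest p that 4 against 6 libraries can give. The same p was found for *apob-1*, *apob-2* and their sum, in 12 such tests in all. Both comparisons share the 6 control libraries. Without any overlap between the libraries of the groups, in either direction, were 12.5% of all tested transcripts for *apob-M* against control and 22.1% for *apob-S* against control.

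**Figure D1:**
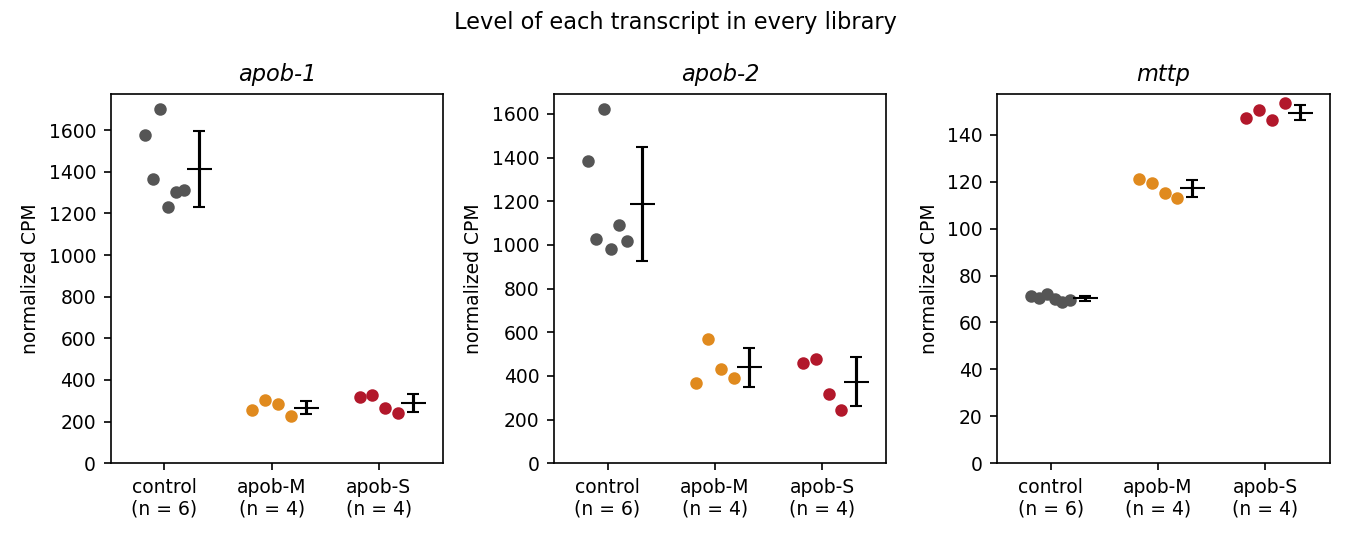
Level of *apob-1*, *apob-2* and *mttp* in normalized CPM (y axis, from 0, with its own scale in each panel) in the control, *apob-M* and *apob-S* libraries; each point is 1 library, and the black bar gives mean ± SD. *apob-1* and *apob-2* are lower in every *apob(RNAi)* library than in every control library, and *mttp* lies in 3 separate bands of 68.6 to 72.1, 113 to 121 and 147 to 153 CPM.

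In the direct comparison of *apob-S* with *apob-M*, *mttp* was higher and the targeted transcripts were not distinguishable. The log2 fold change of *mttp* was 0.35 (95% interval 0.27 to 0.43, SE 0.0381, edgeR FDR 6.53e-06), a 1.28-fold higher level in *apob-S*. That of *apob-1* was 0.11 (−0.11 to 0.34, edgeR FDR 0.592), and that of *apob-2* was −0.23 (−0.63 to 0.17, edgeR FDR 0.517). These intervals still hold a decrease of *apob-2* to 0.646 of its *apob-M* level and an increase of *apob-1* to 1.26 of it, so equal knockdown was not shown. In this comparison 5.17% of tested transcripts were called higher and 6.86% lower in *apob-S*, and 15.8% had no overlap between the libraries. The exact permutation p was 0.0286 for *mttp*, the smallest that 4 against 4 libraries can give, 0.457 for *apob-1* and 0.4 for *apob-2*.

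**Figure D2:**
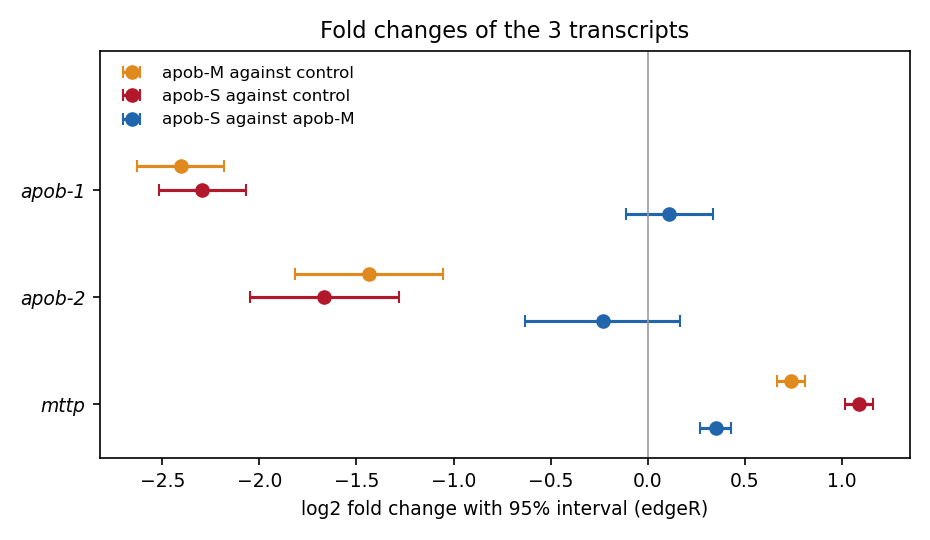
Log2 fold changes from edgeR (x axis) with their 95% intervals (bars) for *apob-1*, *apob-2* and *mttp* in the 3 comparisons, marked by colour. The intervals of *apob-S* against *apob-M* include 0 for *apob-1* (−0.11 to 0.34) and *apob-2* (−0.63 to 0.17) and lie above it for *mttp* (0.27 to 0.43).

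The 3 transcripts also differed in how much they varied among libraries of the same group. The coefficient of variation of normalized CPM in control was 12.99% for *apob-1* and 21.9% for *apob-2*, against 1.76% for *mttp*. Counting error alone, the inverse square root of the count, comes to 0.600% for *apob-1* with 22691 to 36507 counts per control library and 0.661% for *apob-2* with 17534 to 34847 counts. For *mttp*, with 1203 to 1621 counts, it comes to 2.68%, so that the spread of *mttp* between control pools was no larger than counting error. Among the 3732 transcripts with a mean of at least 1000 counts in control, the median coefficient of variation was 4.06%, and 3679 of them varied less than *apob-2*, 3563 less than *apob-1* and 148 less than *mttp*. In *apob-M* the values were 12.3%, 20.4% and 3.17% for *apob-1*, *apob-2* and *mttp*, and in *apob-S* they were 14.4%, 29.8% and 2.12%. The *apob* transcripts thus varied more between pools than *mttp* did in each of the 3 groups, a difference that was not tested.

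Levels per kilobase of transcript put the 3 genes on a common scale. In control *apob-1* was at 122 CPM per kb, *apob-2* at 67.6 and *mttp* at 25.1, which placed them 984th, 1753rd and 4515th from the highest of 18436 transcripts. All 6 control libraries had the order *apob-1*, *apob-2*, *mttp*. In *apob-M* the mean levels were 23.1, 25.0 and 41.9 CPM per kb, and in *apob-S* 25.0, 21.3 and 53.5. *mttp* was the highest of the 3 in all 8 *apob(RNAi)* libraries, where it was the lowest in all 6 control libraries. It moved to 2731st in *apob-M* and 2190th in *apob-S*. The dsRNA lowered *apob-1* and *apob-2*, whose *apob-M* and *apob-S* means were all below the control mean of *mttp*. The change of order is thus not a measure of *mttp* alone. Among the *apob(RNAi)* libraries, *apob-2* was above *apob-1* per kb in 3 of 4 *apob-M* libraries and *apob-1* above *apob-2* in the other *apob-M* library and in 4 of 4 *apob-S* libraries. The level of *mttp* per kb was also divided by that of *apob-1* and *apob-2* together. The quotient was 0.107 to 0.154 in control libraries, 0.730 to 1.00 in *apob-M* and 0.972 to 1.58 in *apob-S*. In this quotient *apob-M* and *apob-S* overlapped, although they did not in *mttp* itself. The denominator of the quotient is the targeted level, so it also reflects the knockdown.

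The 2 targeted paralogs were not reduced equally. The log2 ratio of *apob-1* to *apob-2* counts within a library needs no normalization between libraries. In control it was 0.07 at the lowest library and 0.41 at the highest, with a mean of 0.27 ± 0.13 (SD, n = 6). The *apob-M* libraries were at −0.52, −0.91, −0.61 and −0.78, and the *apob-S* libraries at −0.52, −0.54, −0.26 and −0.02. All 8 were below all 6 control libraries. The mean ratio was lower than in control by a log2 difference of −0.98 in *apob-M* and −0.60 in *apob-S*, and a two-sided exact permutation test gave p = 0.00952 for each, or 0.0143 adjusted over the 3 comparisons of this ratio. *apob-1* therefore lost more of its level than *apob-2* in both groups. Between *apob-S* and *apob-M* the log2 difference was 0.37, the groups overlapped, and the exact permutation p was 0.0571, the same after adjustment.

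**Figure D3:**
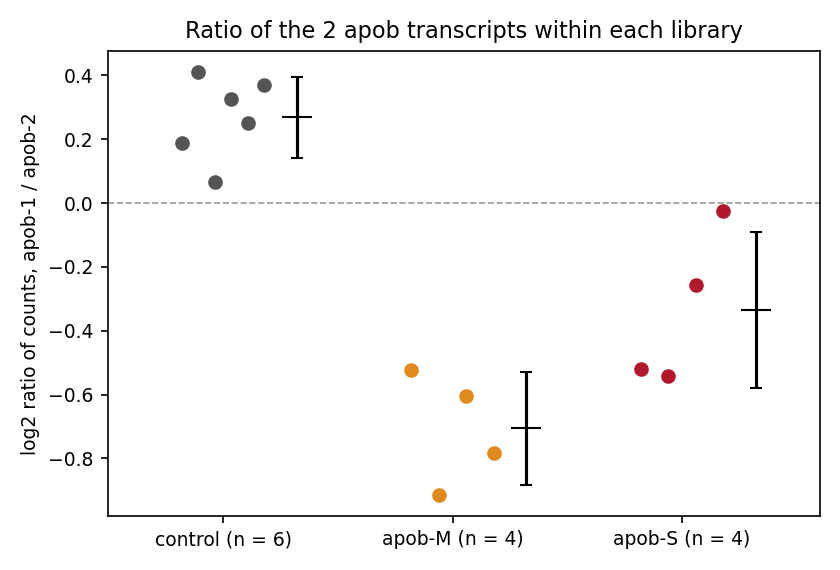
Log2 ratio of *apob-1* to *apob-2* counts (y axis) in each library, with mean ± SD as black bars; the dashed line marks equal counts. The 6 control libraries lie between 0.07 and 0.41, the *apob-M* libraries between −0.91 and −0.52 and the *apob-S* libraries between −0.54 and −0.02.

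The level of *mttp* was set against the *apob* level that was left, library by library. The dsRNA separates the libraries into a high and a low *apob* cluster, so the relation was computed within the 6 control and within the 8 *apob(RNAi)* libraries, on log2 normalized CPM, for 8 relations in all. Among the *apob(RNAi)* libraries the summed *apob* level was 625, 870, 713 and 616 CPM in *apob-M* and 776, 804, 584 and 486 in *apob-S*. Replicate 4 of *apob-S* had the lowest summed level and the highest *mttp*, at 153 CPM, but *apob-S* replicate 2, with the second highest summed level, had 151 CPM of *mttp*, and *apob-M* replicate 4, with the third lowest, had the lowest *mttp* of the 8 libraries.

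Over these 8 libraries, Pearson's r between *mttp* and the summed *apob* level was −0.21 (exact permutation p = 0.603, also 0.603 adjusted over the 8 relations) and Spearman's rho was −0.14 (exact permutation p = 0.752). With *apob-1* alone, r was 0.32 (exact permutation p = 0.425, adjusted 0.485) and rho 0.31 (exact p = 0.462). With *apob-2* alone, r was −0.39 (exact permutation p = 0.351, adjusted 0.468) and rho −0.21 (exact p = 0.619). Without the 2 libraries farthest from the median, r changed sign in all 3 relations, to 0.42, −0.22 and 0.15 in the same order, and leaving out *apob-S* replicate 4 alone turned the first to 0.15. None of these relations passed the test, which does not show that *mttp* and *apob* levels were unrelated.

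The difference between *apob-M* and *apob-S* in *mttp* enters these values, so they were also computed on deviations from the mean of each group. Within groups r was −0.05 for the summed *apob* level (permutation p = 0.91), 0.12 for *apob-1* (permutation p = 0.767) and −0.12 for *apob-2* (permutation p = 0.78). The permutations exchanged deviations across the 2 groups, so these p values are approximate and not exact. Within a group *mttp* varied little beyond counting error, with coefficients of variation of 3.17% against 2.07% from counting in *apob-M* and 2.12% against 1.82% in *apob-S*, so these libraries held little variation in *mttp* that could follow the *apob* level.

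Within the control libraries *mttp* spanned 68.6 to 72.1 CPM while the summed *apob* level spanned 2209 to 3327 CPM. Pearson's r was 0.83 for the sum (exact permutation p = 0.05, adjusted 0.11), 0.86 for *apob-1* (exact p = 0.0333, adjusted 0.11) and 0.80 for *apob-2* (exact p = 0.0694, adjusted 0.111). Spearman's rho was 0.6 (exact p = 0.242), 0.83 (exact p = 0.0583) and 0.6 (exact p = 0.242), with adjusted values of 0.387, 0.156 and 0.387. These values rest on control replicates 1 and 3, which had the highest *apob* levels. Without both, r was −0.33, 0.14 and −0.78.

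The targeted paralogs were also compared with each other, and whether their correlation differed from those with *mttp* was not tested. In the control libraries their r was 0.97 (exact permutation p = 0.025, adjusted 0.11) and rho 0.83 (exact p = 0.0583, adjusted 0.156), with r = 0.43 without control replicates 1 and 3. In the *apob(RNAi)* libraries r was 0.69 (exact permutation p = 0.0551, adjusted 0.11) and rho 0.76 (exact p = 0.0368, adjusted 0.156). On deviations from the *apob-M* and *apob-S* means, r was 0.91 (permutation p = 0.00228, adjusted 0.0183) and rho 0.90 (permutation p = 0.00456), so that pools of a group with more *apob-1* also had more *apob-2*. These permutations again exchanged deviations across the 2 groups, so their p values are approximate and may be too small. Without the 2 libraries farthest from the median, r over the remaining 6 *apob(RNAi)* libraries was 0.87 (exact permutation p = 0.025).

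**Figure D4:**
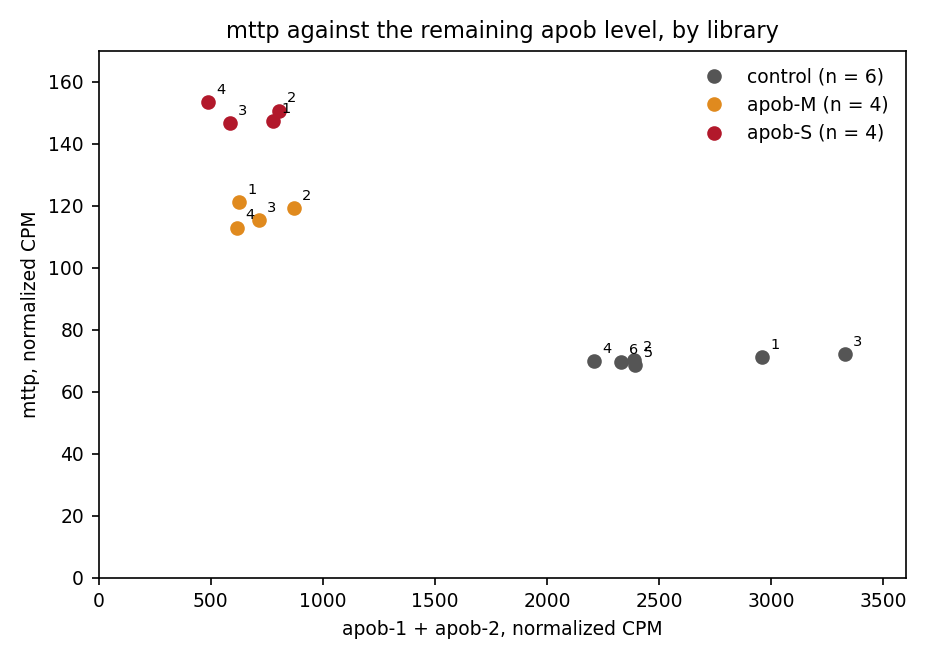
*mttp* (y axis) against the sum of *apob-1* and *apob-2* (x axis), both in normalized CPM from 0, for each of 14 libraries, with the replicate number beside each point. The groups form 3 levels of *mttp*, and within each level *mttp* changes little while the summed *apob* level spans 486 to 804 CPM in *apob-S*, 616 to 870 in *apob-M* and 2209 to 3327 in control.

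The receptors that bind lipoproteins changed unequally. *ldlr-1* (dd_Smed_v6_9829_0_1), an ortholog of the LDL receptor, was at 33.4 ± 2.03 CPM in control (SD, n = 6), 83.05 ± 6.19 among *apob-M* libraries (SD, n = 4) and 118 ± 4.67 among *apob-S* libraries (SD, n = 4). *ldlr-1* thus rose by 1.31 on the log2 scale for *apob-M* (SE 0.0520, edgeR FDR 3.38e-12) and 1.81 in *apob-S* (SE 0.0517, edgeR FDR 1.81e-14), and 0.50 in *apob-S* against *apob-M* (edgeR FDR 8.81e-06). Its levels rose in the same order of groups as those of *mttp*. *vldlr-1* fell by 0.27 on the log2 scale in *apob-S* (edgeR FDR 3.83e-06) and by 0.18 in *apob-M* (edgeR FDR 0.000796, but 0.0617 with edgeR's exact test). *ldlr-2* was called higher in *apob-M*, at 0.15 (edgeR FDR 0.0146, up to 0.12 over the alternatives and 0.069 without *apob-M* replicate 4), and was at 0.06 in *apob-S* (edgeR FDR 0.254).

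Other transcripts that the study's annotation lists place under triglyceride mobilization, triglyceride transport or cholesterol transport numbered 20 besides *apob-1*, *apob-2* and *mttp*, with *ldlr-1* among them. In *apob-M* 3 were called higher, 3 lower and 14 neither, with a median log2 fold change of −0.03, against −0.0025 over all tested transcripts. In *apob-S* 6 were called higher, 5 lower and 9 neither, with a median of 0.06 against −0.0027, and in *apob-S* against *apob-M* 5 were higher, 1 lower and 14 neither. Over all tested transcripts, 7.05% were called higher and 8.24% lower in *apob-M*, and 13.5% and 15.7% in *apob-S*. For *apob-S* against *apob-M* these shares were 5.17% and 6.86%. Whether the list exceeded these shares was not tested. The list held changes in both directions, and against control no increase in it apart from that of *ldlr-1* was as large as that of *mttp*. Between *apob-S* and *apob-M* dd_Smed_v6_933_0_1 also had a larger value, 0.42 on the log2 scale (edgeR FDR 5.2e-05), than the 0.35 of *mttp*.

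After *ldlr-1*, the increases in *apob-S* were 0.50 for dd_Smed_v6_9544_0_1 (edgeR FDR 1.87e-06), 0.47 for dd_Smed_v6_933_0_1 (edgeR FDR 5.3e-07) and 0.43 for dd_Smed_v6_9932_0_1 (edgeR FDR 1.38e-05), all annotated with triglyceride mobilization. In *apob-M* the first was at 0.37 (edgeR FDR 0.00021), dd_Smed_v6_933_0_1 at 0.05 (edgeR FDR 0.527) and the last at 0.18 (edgeR FDR 0.0494, up to 0.136 over the alternatives). The most negative value belonged to dd_Smed_v6_4411_0_1, annotated with cholesterol transport, with 20.7 ± 5.36 CPM in control libraries, 7.48 ± 0.210 in those of *apob-M* and 7.59 ± 1.07 in those of *apob-S*. This transcript had log2 fold changes of −1.47 (SE 0.155, edgeR FDR 1.97e-06) and −1.46 (SE 0.155, edgeR FDR 6.08e-07), near those of *apob-2* in size. The transcript *npc2* (dd_Smed_v6_73_0_1), also taken as an intestine marker above, fell by 0.40 in *apob-M* on the log2 scale (edgeR FDR 0.00188) and by 0.23 in *apob-S* (edgeR FDR 0.0397, up to 0.126 over the alternatives). NPC2 proteins bind cholesterol in lysosomes of vertebrate cells.

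Transcripts of the steps around ApoB in the ER were taken by human best hit: chaperones and oxidoreductases (HSPA5, CALR, CANX, PDIA6, ERO1B), a stress-activated transcription factor (CREB3L1), cargo receptors (TMED4, TMED9), TMEM41A, and enzymes or coat proteins of neutral lipid storage (MOGAT2, SOAT1, FITM2, PLIN5). Best hits were held for 1993 transcripts, and 15 transcripts matched these symbols. The lists that gave the best hits include the study's up- and downregulated transcripts in *apob(RNAi)* animals, called from these same libraries. Changed transcripts could thus be matched more often, so no conclusion is drawn from how these 15 differ from all transcripts. In *apob-M* 6 were called higher, 0 lower and 9 neither, and in *apob-S* 9 were higher, 1 lower and 5 neither. Over all tested transcripts, 7.05% were called higher and 8.24% lower in *apob-M*, and 13.5% and 15.7% in *apob-S*. The median log2 fold change of the 15 came to 0.08 for *apob-M* and 0.22 for *apob-S*, against −0.0025 and −0.0027 over all tested transcripts. Between *apob-S* and *apob-M* 1 of the 15 was called higher, the PLIN5 match, and 0 lower, where this count was 0 to 2 over the alternatives. Over all tested transcripts 5.17% were called higher and 6.86% lower in this comparison.

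The largest of these increases was that of dd_Smed_v6_3066_0_1, a TMEM41A match, at 63.5 ± 2.99 CPM in control libraries, 198 ± 6.35 in those of *apob-M* and 215 ± 20.6 in those of *apob-S*. Against control this was 1.64 (SE 0.0531, edgeR FDR 1.36e-13) and 1.76 (SE 0.0532, edgeR FDR 3.15e-14) on the log2 scale. The other TMEM41A match, dd_Smed_v6_3439_0_1, was not called in either, at 42.6, 40.3 and 41.5 CPM. TMEM41B, a mammalian paralog, is an ER lipid scramblase that acts in lipoprotein export. The match of HSPA5, the main ER chaperone of the Hsp70 family (dd_Smed_v6_511_0_1), was at 425 ± 10.9, 580.0 ± 29.7 and 632 ± 26.3 CPM, and its log2 increase was 0.45 (edgeR FDR 7.77e-08), then 0.57 (edgeR FDR 6.88e-10). The lectin chaperones that fold secreted glycoproteins rose by less. The CALR match (dd_Smed_v6_220_0_1) was at 0.24 in *apob-M* and 0.22 in *apob-S*, and the CANX match (dd_Smed_v6_632_0_1) at 0.24 in both, with edgeR FDR of at most 0.000147. The PDIA6 match (dd_Smed_v6_1058_0_1), a disulfide isomerase, was at 0.17 (edgeR FDR 0.0123, up to 0.0748 over the alternatives) and 0.22 (edgeR FDR 0.00105). The ERO1B match (dd_Smed_v6_6558_0_1) was not called, at −0.07 in *apob-M* (edgeR FDR 0.252) and −0.05 in *apob-S* (edgeR FDR 0.367). Nor was the CREB3L1 match (dd_Smed_v6_1032_0_1), at −0.02 (edgeR FDR 0.804) and −0.05 (edgeR FDR 0.349).

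Among the lipid esterification transcripts, 1 of 2 SOAT1 matches rose (dd_Smed_v6_2567_0_1), by log2 fold changes of 0.26 in *apob-M* (edgeR FDR 0.00094) and 0.31 in *apob-S* (edgeR FDR 7.17e-05). SOAT1 makes cholesteryl esters from free cholesterol. The MOGAT2 match (dd_Smed_v6_4947_0_1), of an enzyme that rebuilds triglyceride from absorbed monoglyceride in the mammalian intestine, was higher in *apob-S*, at 0.26 (edgeR FDR 0.00647), and at 0.06 in *apob-M* (edgeR FDR 0.631). The PLIN5 match (dd_Smed_v6_154_0_1), of a lipid droplet coat protein, was at 0.24 in *apob-S* (edgeR FDR 1.31e-05) and 0.09 in *apob-M* (edgeR FDR 0.0895). The FITM2 match (dd_Smed_v6_10388_0_1) was not called, at −0.06 in *apob-M* (edgeR FDR 0.663) and 0.10 in *apob-S* (edgeR FDR 0.407). The cargo receptor matches moved in opposite directions in *apob-S*, with 0.12 for TMED4 (dd_Smed_v6_1023_0_1, edgeR FDR 0.0149) and −0.41 for TMED9 (dd_Smed_v6_9884_0_1, edgeR FDR 0.00801). The adjusted p of the TMED4 match reached 0.182 over the alternatives.

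**Figure D5:**
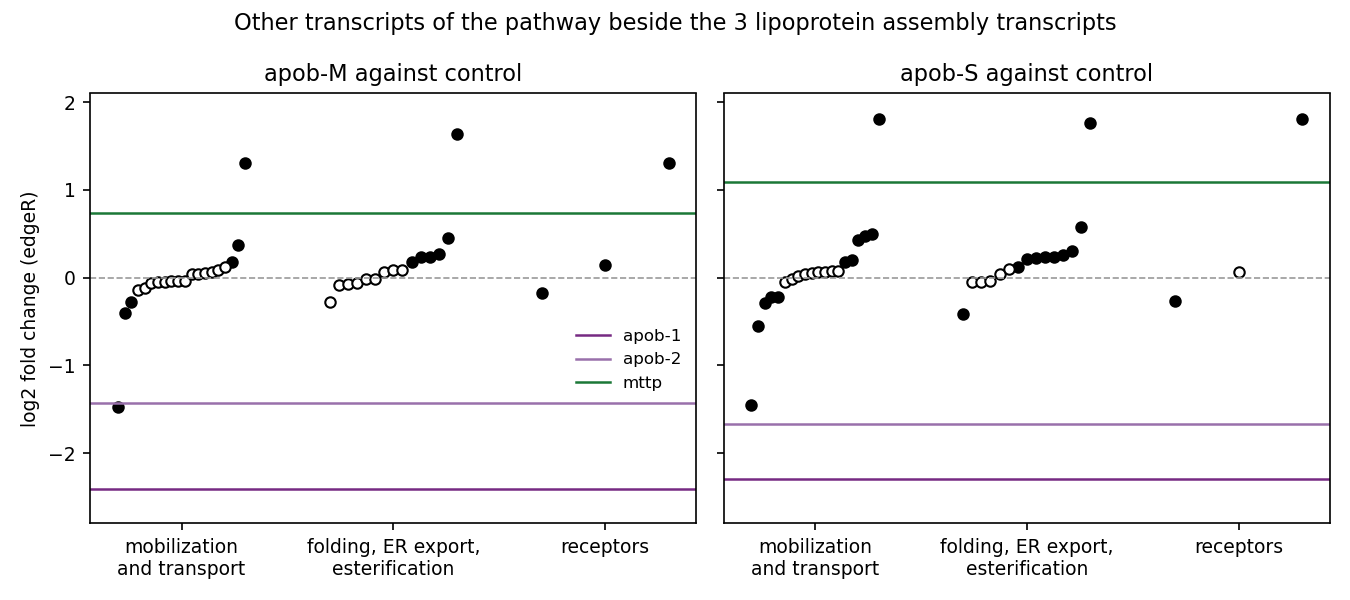
Log2 fold changes from edgeR (y axis) of the 20 mobilization and transport transcripts, the 15 folding, ER export and esterification transcripts and the 3 receptors, each a point (filled where the FDR was under 0.05, open otherwise; *ldlr-1* appears in 2 sets), in *apob-M* and *apob-S* against control. Coloured lines mark *apob-1*, *apob-2* and *mttp*, and *ldlr-1* and a TMEM41A match lie above the *mttp* line in both panels.

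Markers of other cell types moved with the groups as well. In *apob-S*, *laminin* (pharynx) fell by 0.97 on the log2 scale (edgeR FDR 1.74e-07) and *prog-1* (early epidermal progeny) by 0.75 (edgeR FDR 3.19e-08), and *tgs-1*, a marker of a neoblast subset, rose by 0.64 (edgeR FDR 0.000156). The general neoblast marker *piwi-1* was at 0.09 (edgeR FDR 0.0623) and the neuronal *ChAT* at 0.04 (edgeR FDR 0.655), and neither was called. For *apob-M* the log2 values were −0.44 for *laminin* (edgeR FDR 0.00235), −0.22 for *prog-1* (edgeR FDR 0.0202, up to 0.0851 over the alternatives), 0.68 for *tgs-1* (edgeR FDR 0.000266), 0.22 for *ChAT* (edgeR FDR 0.0123, up to 0.0638) and 0.02 for *piwi-1* (edgeR FDR 0.798). Between *apob-S* and *apob-M*, *laminin* and *prog-1* had log2 values of −0.53 each (edgeR FDR 0.00141 and 4.28e-05), and *tgs-1* was at −0.03 (edgeR FDR 0.911). In *apob-S*, of the 4 intestine markers, *slc22a6* rose by 0.35 (edgeR FDR 2.97e-06) and *nkx2.2* by 0.32 (edgeR FDR 4.86e-06), while *npc2* fell by 0.23 (edgeR FDR 0.0397) and *ctsla* was not called. In *apob-M* 2 were likewise higher (*slc22a6* 0.25, and *nkx2.2* 0.12 with an edgeR FDR of 0.0451, up to 0.236 over the alternatives) and 1 lower (*npc2* −0.40). *nkx2.2* was also higher in *apob-S* than in *apob-M*, by 0.19 (edgeR FDR 0.00578, up to 0.0831 over the alternatives). The increases of *slc22a6* and *nkx2.2* were smaller than that of *mttp*, and their part in its level was not tested. *ctsla* was at 1844 ± 83.3, 1846 ± 142 and 1804 ± 130.3 CPM in control, *apob-M* and *apob-S*.

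As a description, the transcripts most like each gene over the 14 libraries were sought by Pearson's r of log2 CPM among 13395 transcripts whose mean log2 CPM was 2 or more, where the libraries share the 3 groups and their sequencing. For *mttp* they were dd_Smed_v6_10262_0_1 (human best hit TMEM56, r = 0.996), *ldlr-1* (r = 0.995) and dd_Smed_v6_4422_0_1 (r = 0.992). For *apob-1* they were dd_Smed_v6_4128_0_1 (r = 0.983), dd_Smed_v6_940_0_1 (0.978) and dd_Smed_v6_410_0_1 (0.976). For *apob-2* they were dd_Smed_v6_1382_0_1 (r = 0.972), dd_Smed_v6_2307_0_1 (best hit TLL2, 0.970) and dd_Smed_v6_749_0_1 (best hit PLS3, 0.970).

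Most of this likeness was a likeness of group means for *mttp* and *apob-1*, and less so for *apob-2*. After the group means were taken off, r was 0.66, 0.46 and −0.05 for the 3 transcripts nearest to *mttp*, and 0.33, 0.09 and −0.04 for those nearest to *apob-1*. For *apob-2* it was still 0.95, 0.75 and 0.84. The nearest of these, dd_Smed_v6_1382_0_1, varied with *apob-2* from pool to pool within groups, in the same libraries by which it was picked. Its mean level was 229.8 CPM among control libraries, 142 among *apob-M* and 119 among *apob-S* libraries.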

How the data were processed

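The authors aligned reads with Bowtie2 2.3.1 to the unique transcripts of the dd_Smed_v6 assembly and counted them with featureCounts (Subread 1.6.3), with reads mapping to several transcripts counted on each. The deposited counts are not normalized and are the values used here. A second deposited table holds fold changes and false discovery rates of the authors' own comparisons and was not used. All count columns belonged to a mapped library. No genome was used.

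Analyses were run in R 4.3.3 and Python 3.11.15. Counts were tested with edgeR 4.0.16 (quasi-likelihood, TMM, group as the only term, all 14 libraries, Benjamini-Hochberg threshold 0.05). The SE of a log2 fold change is its size divided by the square root of edgeR's F. Exact permutation tests were two-sided, doubling the smaller tail. Scripts were tested on simulated counts. The fits were repeated with other tests (DESeq2 1.42.0, voom of limma 3.58.1, and the pairwise exact test of edgeR), with other scalings (DESeq2's size factors, or none beyond library size), with the filter dropped or raised to 5 CPM, on only the groups compared, with a block for replicate number, and without each library in turn. The paralog ratio was also computed with 100 reads added to both counts. Sums over assembly components were computed too, but they equal the main counts because each component held 1 transcript.

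The members, lists and tests were chosen with earlier results of these data known. Transcripts were named by role: the 3 members, receptors, markers, list transcripts past the threshold or with a described role, and the 3 most alike per member. Human best hits and annotation terms are from the study's tables, which were held in part. The best hit held was APOB for *apob-1* and MUC2 for *apob-2*, and none was held for *mttp*. The best hits come partly from its lists of transcripts changed by *apob* or *nkx2.2* RNAi. Counting error alone underlies the stated counting coefficients, and since reads carry no molecular identifiers they are a lower limit.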

Additional observations from a re-analysis of the deposited data

Results flagged for a closer look

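In 153 group values checked (the members, their sum and ratios, and the named transcripts, in each of 3 groups), 6 had 1 library far from the others by Dixon's criterion, where chance gives about 5%. None of them was *apob-1*, *apob-2* or *mttp*. In *apob-M* replicate 4, *npc2* was lowest at 348 CPM (others 416 to 427), *ldlr-2* highest at 134 (others 123 to 124) and dd_Smed_v6_4674_0_1 highest at 50.3 (others 45.0 to 45.9). In *apob-M* replicate 1, *laminin* was lowest at 36.1 CPM (others 47.9 to 48.1) and *nkx2.2* lowest at 119 (others 126 to 127). In control replicate 1, dd_Smed_v6_933_0_1 was lowest at 164.8 CPM (others 176 to 181).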

How the results depend on the processing

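The log2 fold changes of *apob-1*, *apob-2* and *mttp* kept their direction and their side of the threshold in all 3 comparisons under each of 24 alternatives. With 1 library left out, *mttp* ranged from 0.72 to 0.75 in *apob-M*, 1.08 to 1.10 in *apob-S* and 0.33 to 0.37 between them, where the exact permutation p of the level (0.33 to 0.37) was 0.0571, the smallest for 3 against 4 libraries. The count of transcripts called in *apob-M* was 2819, or 1795 with library size alone. The count of called ER transcripts in *apob-S* against *apob-M* was 1, but 0 with the exact test and library size alone, 2 with DESeq2, limma-voom and the 5 CPM filter, and 1 to 2 with a library left out (2 without *apob-M* replicate 1, 3 or 4, or *apob-S* replicate 1 or 2). Replicate numbers did not pair the libraries, with a correlation of deviations over 0.1 in 1 of 12 same-number pairs. The replicate block gave 2102, 4670 and 2127 calls in place of 2819, 5398 and 2219 (*apob-M*, *apob-S*, *apob-S* against *apob-M*), and paralog ratio differences of −0.95 and −0.58, with an exact p of 0.125 that 4 pairs cannot go below. Among the *apob(RNAi)* libraries, r of *apob-1* with *apob-2* was 0.91 on deviations from group means, and r of *mttp* with the summed *apob* level was −0.42 to 0.15 with a library left out, the last without *apob-S* replicate 4. The spread of the *apob* values between pools exceeded counting error, and an effect of depth on them was not tested.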
